A study of Schizosaccharomyces pombe with 9 samples.

Results

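pfl2 is a fission yeast (Schizosaccharomyces pombe) gene for a flocculin-like surface glycoprotein, and it was examined here in PAR-CLIP libraries of the histone deacetylase Clr3. Every called position on chromosome I, minus strand, between 3987033 and 3991412 was taken, the span of SPAPB15E9.01c in the supplied annotation (genome assembly ASM294). It is 1 of 5113 protein-coding genes on the nuclear chromosomes. The gene was chosen by its measured share of T-to-C conversions, which was high among mRNAs and lay far apart in the crosslinked replicates. That share is therefore given as a description without a test. pfl2 had 25 of the 6661 called positions of crosslinked replicate 1, 7 of the 4824 of crosslinked replicate 2 and 0 of the 135 of the control without crosslinking.

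In PAR-CLIP, cells take up 4-thiouracil, ultraviolet light joins the thio-uridine to a bound protein, and reverse transcription then reads that base as C. All 3 libraries came from the same h+ strain, which carries the alleles ura4-delta18 and leu1-32 together with ade6-M216, a ura4+ insertion written imr1R(NcoI)::ura4+, and a tagged Clr3 (clr3-3HA-TAP::kan MX). Cells grew at 30 °C with 10 mg/l uracil, 4% glucose and 100 µM 4-thiouracil, received 900 µM more for 4 h, and were put under 365 nm light at 12 J/cm2. The control shares these protocol entries and is a control by its title and by the series design alone. Wild-type and seb1-1 RNA-seq samples, 3 of each, were not analysed here. No library from untagged cells was used, so crosslinks to Clr3 cannot be told apart from crosslinks to other proteins on the beads.

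Flocculins are cell wall glycoproteins that let yeast cells stick to one another. They usually carry long stretches of serine and threonine, the residues to which O-linked sugars are attached, arranged in tandem repeats. In fission yeast their genes are switched on by the transcription factor Mbx2 and held down by the repressor Rfl1, also named Gsf1. Clr3 is the catalytic subunit of SHREC, a complex that removes acetyl groups from histones in silent chromatin.

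The annotated pfl2 mRNA is a single exon of 4380 nt, with a 5′ UTR of 1063 nt, a coding sequence of 3111 nt and a 3′ UTR of 206 nt. The coding sequence spans I 3987239 to 3990349 and has 1036 codons, of which 32.5% are for serine and 23.7% for threonine. Only a T can convert, and 1523 of the bases (34.8%) are T. The 5′ UTR is richest in T, at 48.8% of its bases, against 29.3% in the coding sequence. Positions along the mRNA are counted below from 1 at the annotated start, which is I 3991412.

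Part of the coding sequence is made of repeats in register with the codons. Offsets at which a 60-nt stretch of the mRNA met another with at least 54 identical bases numbered 26, and all 26 were multiples of 3. The sequences below are coding-strand DNA from the reference genome, printed because they show how alike the copies are and where conversions were called in them. Units of 30 nt follow each other near the start of the repeats, and the lines give the first pair of them, at I:3989951-3989980 and I:3989921-3989950, which differ at 1 base.
30-nt unit 1: actactagctcctctttggcttctagttct
30-nt unit 2: attactagctcctctttggcttctagttct
Units of 48 nt fill the middle of the gene, and the first pair, at I:3989282-3989329 and I:3989234-3989281, share 39 of 48 bases.
48-nt unit 1: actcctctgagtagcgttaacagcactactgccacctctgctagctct
48-nt unit 2: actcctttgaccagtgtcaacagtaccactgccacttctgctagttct
Units of 93 nt come last. Units 1, 2 and 3 of them lie at I:3988439-3988531, I:3988346-3988438 and I:3988253-3988345, and capitals mark the positions called in crosslinked replicate 1.
93-nt unit 1: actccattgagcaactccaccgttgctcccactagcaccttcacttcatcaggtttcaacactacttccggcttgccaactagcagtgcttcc
93-nt unit 2: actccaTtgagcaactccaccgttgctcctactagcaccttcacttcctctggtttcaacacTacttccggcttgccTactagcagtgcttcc
93-nt unit 3: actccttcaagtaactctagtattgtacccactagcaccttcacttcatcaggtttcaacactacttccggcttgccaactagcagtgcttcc
Unit 2 differs from unit 1 at 4 bases and unit 3 differs from unit 1 at 10. Unit 2 held 3 called positions, and units 1, 3 and 4 held 0 in either crosslinked library.

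Over the whole mRNA, crosslinked replicate 1 had 89 conversions in 6306 reads at its 25 called positions. Crosslinked replicate 2 had 20 conversions in 794 reads at its 7 called positions. The control had no called position in the gene, on either strand. Its library listed far fewer calls in general, in 1.21% of protein-coding genes, and since only called positions are listed, its reads over pfl2 are unknown and no upper limit can be set.

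The share of each library's conversions that fell in pfl2 was 0.46% in crosslinked replicate 1 (Wilson 95% interval 0.374 to 0.566) and 0.18% in crosslinked replicate 2 (0.116 to 0.277). The mean was 0.32% ± 0.198 (SD, n = 2). By number of called positions pfl2 ranked 1 among the 2678 protein-coding genes with any in crosslinked replicate 1, and 28 among 2227 in crosslinked replicate 2. By conversions it ranked 4 and 24. Corrected for length it stood lower, at 5.71 and 1.6 positions per kb, which were ranks 43 and 301, against medians of 0.766 and 0.697 over genes with a position. Intervals here and below cover counting error only, since no source used here says that duplicate reads were merged.

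**Figure D1:**
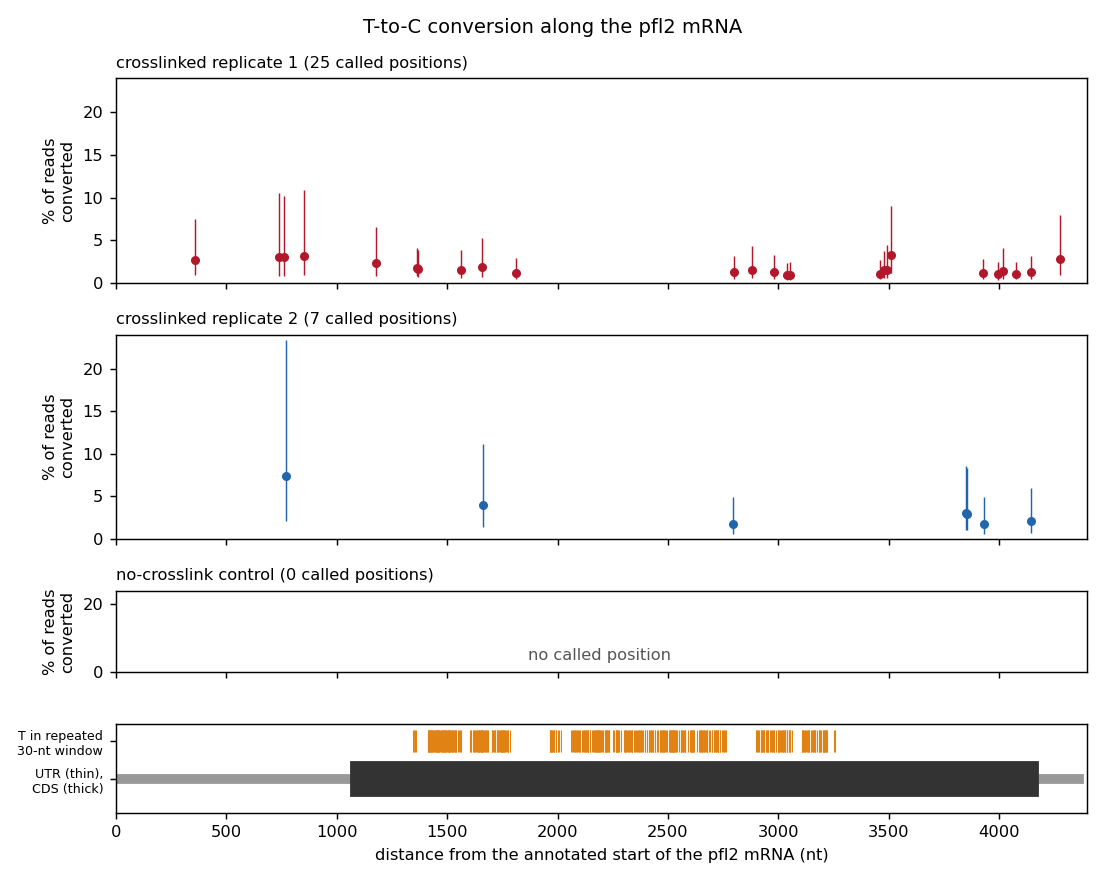
Share of converted reads, in percent, at each called position of pfl2 (points, with Wilson 95% intervals) against distance from the mRNA start in nt, with 1 panel per library, and below them the UTRs, the coding sequence and every T whose 30-nt window recurs. Crosslinked replicate 1 has 25 positions, none between nt 1811 and nt 2800, crosslinked replicate 2 has 7, and the control has 0.

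In the 5′ UTR, crosslinked replicate 1 had 4 called positions and crosslinked replicate 2 had 1. The position nearest the start was nt 356 (I 3991057), with 3 conversions in 114 reads. It sits in a run of pyrimidines, shown with the called T in capitals.
nt 356: ttcctctccttttttTccccgtcttttttt
The other 5′ UTR positions of crosslinked replicate 1 were nt 737 with 2 conversions in 65 reads, nt 763 with 2 in 67 and nt 850 with 2 in 63. All 4 were converted in 2.63% to 3.17% of reads. Each had the lowest number of conversions called in that library with the same or more reads. The narrow range is thus no measure of even conversion. Crosslinked replicate 2 had nt 772 with 2 conversions in 27 reads, or 7.41% (2.06 to 23.4), an interval that takes in all 4 values of crosslinked replicate 1.

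In the coding sequence, crosslinked replicate 1 had 20 called positions with 77 conversions in 5890 reads, and crosslinked replicate 2 had 6 with 18 conversions in 767 reads. The positions with most conversions had 5 each: nt 1364 in 285 reads, nt 1370 in 299 reads and nt 4076 in 473 reads. Converted shares there were 1.75% (0.752 to 4.04), 1.67% (0.716 to 3.85) and 1.06% (0.452 to 2.45), which do not stand apart from each other. The first pair lie in serine codons 101 and 103, in 30-nt windows with no other match of at most 2 mismatches in the genome.
nt 1364 and nt 1370, I:3990032-3990061: aactctactactTcagctTccccaactagc
Next came 11 positions with 4 conversions each, in 266 to 435 reads. The lowest share of all was 0.92% at nt 3037 (4 of 435 reads), in the 93-nt repeat. The highest in the coding sequence was 3.23% at nt 3508 (3 of 93 reads).

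The 6 coding positions of crosslinked replicate 2 each had 3 conversions. They were nt 1661 in 75 reads, nt 2795 in 174, nt 3848 in 98, nt 3856 in 102, nt 3931 in 175 and nt 4146 in 143. Converted shares lay between 1.71% and 4.0%. The 3′ UTR had 1 called position, nt 4277 (I 3987136) in crosslinked replicate 1, with 3 conversions in 107 reads, or 2.8%. It was the last inside the gene's bounds.

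The median called position lay nearer the 3′ end of the mRNA than the median T in both crosslinked libraries. The median position was nt 2981, or 68.1% of the mRNA length, in crosslinked replicate 1, and nt 3848, or 87.9%, in crosslinked replicate 2. The median of all T of the mRNA was nt 1748, or 39.9%. Of 10 equal parts of the mRNA, the last, with 160 T, held 5 positions of crosslinked replicate 1 and 1 of crosslinked replicate 2, and the part before it, with 104 T, held 2 and 3. The first, with 219 T, held 1 and 0. Calls were not limited to the 3′ end: the part from nt 1315 to nt 1752, also with 160 T, held 4 and 1, and the part from nt 2629 to nt 3066, with 125 T, held 5 and 1. The other 5 parts held 0 to 3 and 0 to 1.

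Across all called positions the converted share was 1.41% of reads in crosslinked replicate 1 (1.15 to 1.73) and 2.52% in crosslinked replicate 2 (1.64 to 3.86). Per position, the median was 1.5% (0.92 to 3.23) in crosslinked replicate 1 and 2.94% (1.71 to 7.41) in crosslinked replicate 2. These shares were low beside those of mRNAs taken at any depth. Among protein-coding genes with at least 5 called positions, the median converted share of pfl2 was the 24th lowest of 216 in crosslinked replicate 1 and the 20th lowest of 121 in crosslinked replicate 2, where the medians over genes were 4.62% and 7.41%. The depth at its positions was high: the median was 268 and 102 reads, against 45.2 and 27 over the same genes. Over other protein-coding positions with at least 63 and 27 reads, the lowest depths of pfl2, the median converted share was 1.79% and 3.77%. These values are nearer to the 1.5% and 2.94% of pfl2.

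Nearly every pfl2 call was at the lowest number of conversions that was called at its depth. In crosslinked replicate 1, 23 of 25 positions (92.0%) had the lowest number found at any called position of that library with the same or more reads, and the others, nt 1364 and nt 1370, had 1 conversion more. In crosslinked replicate 2, all 7 of 7 (100.0%) did. Over other protein-coding positions at or above the lowest depth of pfl2 (63 and 27 reads) the share was 79.6% of 898 and 86.4% of 838. Over the other nuclear positions of all kinds it was 66.04% of 1278 and 74.05% of 1179. Positions with 2 conversions were called up to 67 and 68 reads, with 3 up to 221 and 225, and with 4 up to 438 and 450.

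**Figure D2:**
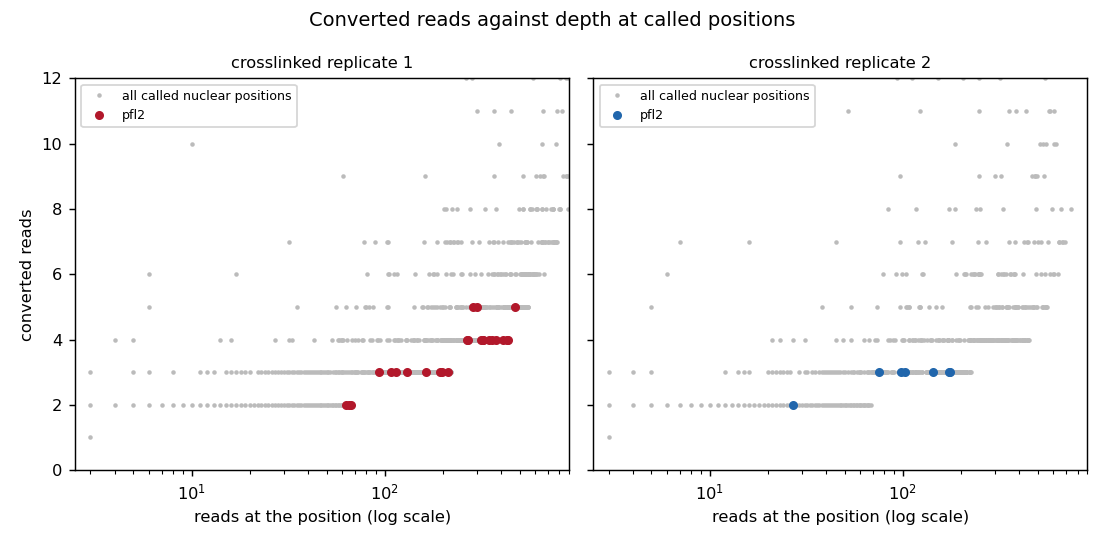
Converted reads against reads at each called nuclear position (reads on a log scale; points beyond the axes are not drawn), with pfl2 in colour over all positions in grey, for the crosslinked libraries. The pfl2 points lie along the lower edge of the grey cloud, at 2 to 5 converted reads in crosslinked replicate 1 and at 2 to 3 in crosslinked replicate 2.

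The crosslinked replicates had 0 called positions of pfl2 in common. Among 65 protein-coding genes with at least 5 called positions in each crosslinked library, 47 (72.3%) also had none in common. A position called in both is needed to compare converted shares by Fisher's exact test, so no such test could be made for pfl2. Of the 7 positions of crosslinked replicate 2, 5 were within 10 nt of one of the 25 of crosslinked replicate 1. The median distance was 5 nt over all 7, and the largest was 80 nt. No such share was worked out for other genes, so the count of 5 does not show agreement between the replicates. The windows of these 5 pairs are shown because they let depth be compared at nearly the same base, with both called T in capitals.
nt 763 and nt 772, I:3990631-3990660: aaatcgatctTtttcttaaTcgcaagtact
nt 1660 and nt 1661, I:3989738-3989767: ttggcttctagttcTTtgaactcgactacc
nt 2800 and nt 2795, I:3988601-3988630: tctaccatcaccTcttcTgcttctggctca
nt 3928 and nt 3931, I:3987469-3987498: ccaccggtgacctTacTactatcgatccca
nt 4143 and nt 4146, I:3987254-3987283: ttgaatggattgaTgaTtgccgcggtaatt

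At the 5 pairs, reads in crosslinked replicate 1 and then in crosslinked replicate 2 were 67 and 27, 164 and 75, 322 and 174, 358 and 175, and 322 and 143. Replicate 1 thus had 1.85 to 2.48 times the reads of replicate 2, with a median of 2.19. The median was 2.23 over 361 such pairs elsewhere in the genome with at least 20 reads in both (percentiles 10 to 90 at 1.61 to 3.09). All 5 ratios of pfl2 lay inside that range. Numbers of calls and conversions differed more: pfl2 had 3.57 times the called positions and 4.45 times the conversions in replicate 1, against 1.38 and 1.74 times over the whole libraries. These sets are unlike, since the libraries held 3401 and 3093 positions with 1 conversion, a kind that pfl2 lacked. With at least 2 conversions required everywhere, the pfl2 share was 2.24 times as high in replicate 1, against 2.56 times with all calls.

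At all 5 pairs the converted share in crosslinked replicate 1 was below that in crosslinked replicate 2. At nt 3928 it was 1.12% (4 of 358 reads), against 1.71% at nt 3931 (3 of 175 reads), and 3 was the lowest number of conversions called in crosslinked replicate 2 at 175 or more reads. At all 5 pairs the number of conversions in each crosslinked library was the lowest called in that library with the same or more reads. Each of these shares is thus the lowest called number divided by the depth, and does not compare conversion between the libraries. The part that depth and the calling limit have in the difference between the replicates was not tested.

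The share of conversions in pfl2 was 2.56 times as high in crosslinked replicate 1 as in crosslinked replicate 2 (interval 1.58 to 4.14, from counting error in pfl2). The gene was chosen partly for this difference, so the interval is no test of it. Nor does the interval measure the spread between replicates. Of 312 protein-coding genes with at least 10 conversions in the pair of libraries, 28.8% were at least 2-fold higher in replicate 1 and 15.1% at least 2-fold higher in replicate 2. The calls of pfl2 at the authors' deposited p of at most 0.001 numbered 4 and 3, and with all other calls also held to that limit its shares were 0.147% and 0.16%, a ratio of 0.92. The ratio of 0.92 rests on 4 and 3 positions and has no interval, so no turn of direction is shown. The higher share in crosslinked replicate 1 was not seen among these stricter calls. Several calls lay close to the limit. For crosslinked replicate 1, nt 356, nt 1564, nt 3478 and nt 4076 fell just outside it, at the authors' p of 0.001003 to 0.001129. Just inside it were nt 3848 and nt 3856 of crosslinked replicate 2, at 0.000934 and 0.000987. The counts of 4 and 3 thus depend on where the limit is set.

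**Figure D3:**
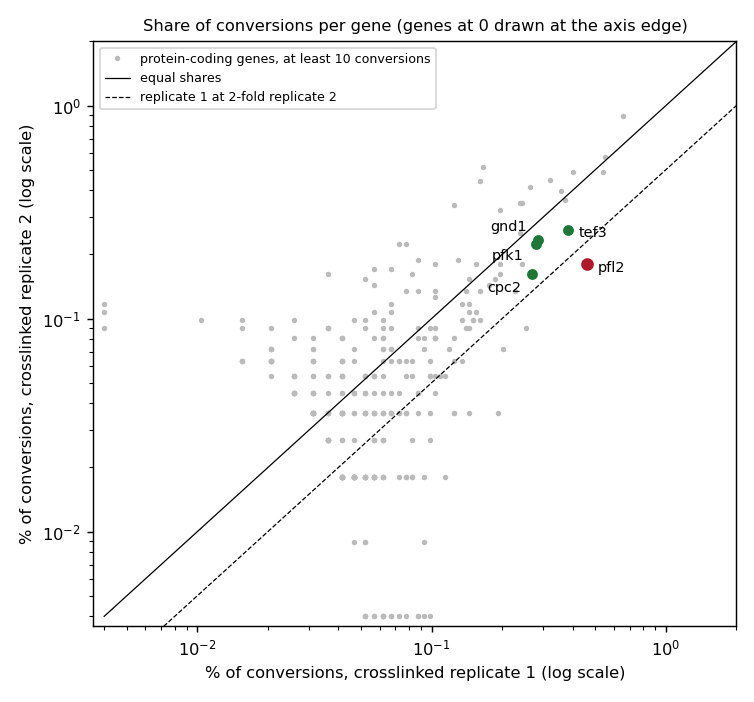
Percent of all conversions per protein-coding gene in crosslinked replicate 2 against crosslinked replicate 1 (log scales), for genes with at least 10 conversions in the pair, with genes at 0 drawn at the edge. pfl2, in red at 0.46% and 0.18%, lies below the dashed line of a 2-fold difference, and the genes nearest to it, in green, lie above that line.

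The genes with shares most like those of pfl2 in both crosslinked libraries, by distance of log2 shares among 65 genes with at least 5 positions in each, were tef3, pfk1, cpc2 and gnd1. tef3, for a translation elongation factor, had 0.382% and 0.26% of conversions, at a distance of 0.60. pfk1, for the glycolytic enzyme phosphofructokinase, had 0.279% and 0.225%. cpc2, for a ribosome-bound protein of the RACK1 family, had 0.269% and 0.162%, and gnd1, for a dehydrogenase of the pentose phosphate pathway, 0.284% and 0.234%. Their median converted shares in crosslinked replicate 1, 1.33% to 1.79%, lay around the 1.5% of pfl2. For crosslinked replicate 2 they were spread more widely, from 1.33% to 4.31%, against 2.94%. These genes were unlike pfl2 in median reads per reference depth, at 0.0152 to 0.0794 against 0.548 in crosslinked replicate 1. The control had 2 positions each in tef3 and pfk1, 1 in gnd1, and 0 in cpc2 and pfl2. The likeness in shares of conversions rests on 2 libraries.

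The authors' deposited occupancy divides the conversions at a position by a whole number, read here as the depth of a reference library that the sources used here do not name. In crosslinked replicate 1 this reference depth at pfl2 positions was 6 to 20 in the 5′ UTR, 200 to 2273 in the coding sequence and 675 at the 3′ UTR position. It was thus far lower over the 5′ UTR than over the rest of the mRNA, while reads in the PAR-CLIP library were 63 to 114 in the 5′ UTR and 93 to 473 in the coding sequence. Occupancy was accordingly highest there. It was 0.111 to 0.333 in the 5′ UTR, where 0.333 came from 2 conversions over a reference depth of 6 at nt 763. In the coding sequence it was 0.00176 to 0.0161, and at the 3′ UTR position 0.00444. In crosslinked replicate 2 it was 0.286 at the 5′ UTR position (reference depth 7) and 0.0019 to 0.0119 in the coding sequence. Summed over all positions, conversions per reference depth were 0.00547 and 0.00348.

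**Figure D4:**
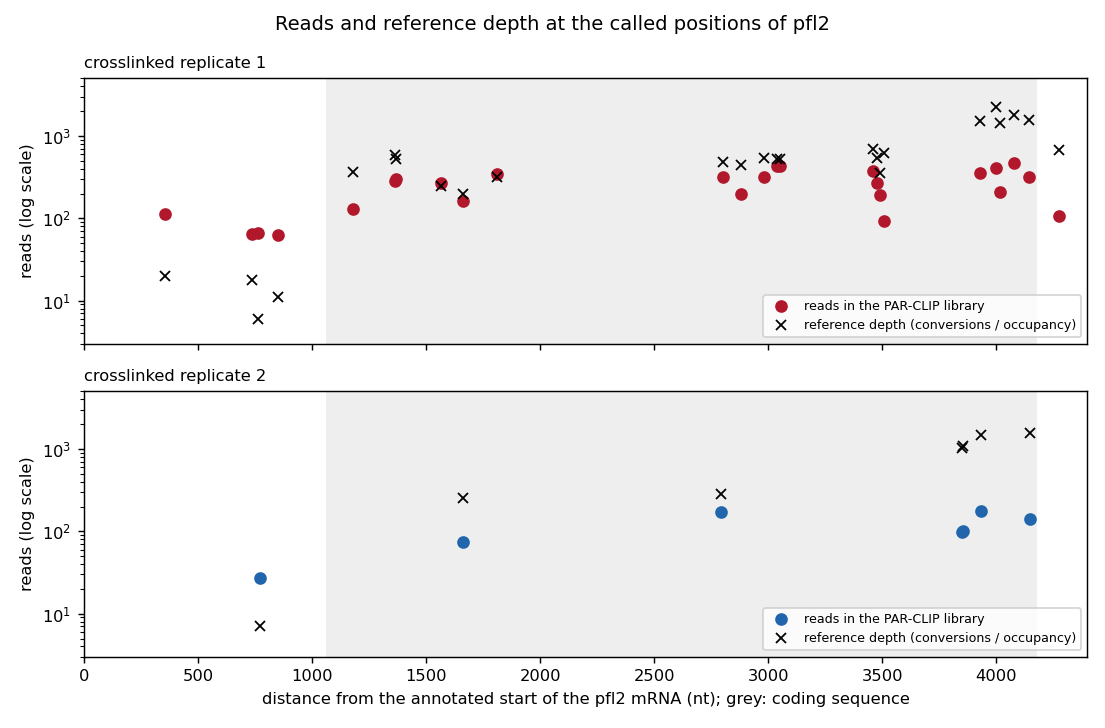
Reads in the PAR-CLIP library (filled points) and reference depth (crosses) at each called position of pfl2, on a log scale, against distance from the mRNA start in nt, with the coding sequence in grey. Reads exceed the reference depth at all 5′ UTR positions of both libraries, and the reference depth rises to 2273 near the 3′ end.

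Reads per reference depth, which does not use the conversions, were above the medians of other genes in the 5′ UTR and coding sequence of pfl2. In crosslinked replicate 1 the ratio was 3.61, 11.2, 5.73 and 5.7 at the 5′ UTR positions nt 737, nt 763, nt 850 and nt 356. Among other protein-coding genes, 26.3% of 99 called 5′ UTR positions with at least 20 reads reached a ratio of 1, and their median was 0.257. In the coding sequence pfl2 had a median of 0.514 (0.147 to 1.08), against 0.0586 over 1784 coding positions of other genes. In crosslinked replicate 2 the ratio was 3.86 at the 5′ UTR position and 0.106 at the median of the coding positions (0.0903 to 0.617), against 0.122 and 0.023 in other genes. By its median ratio over all its positions, pfl2 ranked 3 of 216 genes in crosslinked replicate 1 and 11 of 121 in crosslinked replicate 2. The ratio sets an immunoprecipitate beside a library of unknown kind and growth conditions, and no test was made of it.

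**Figure D5:**
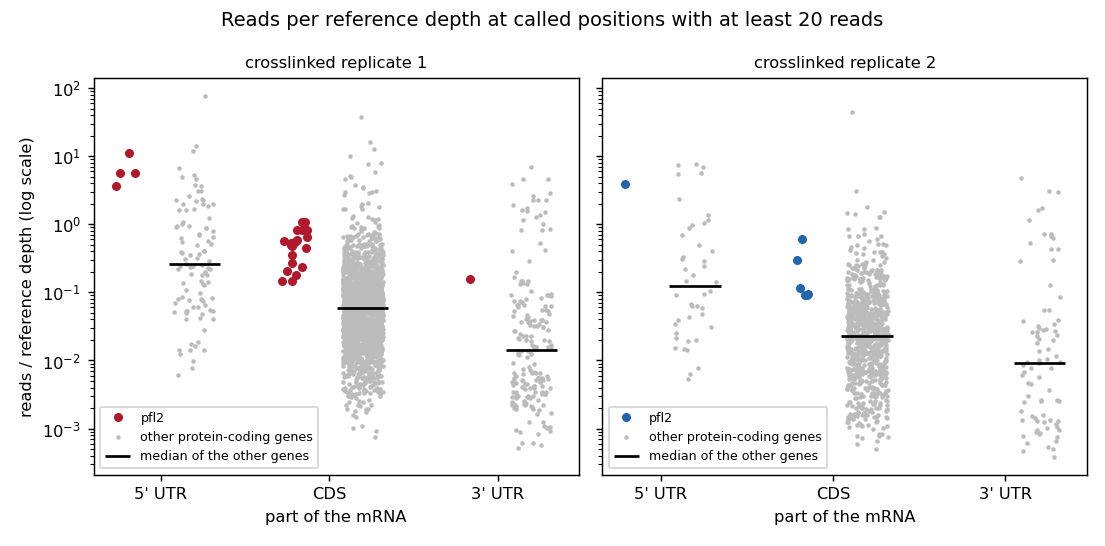
Reads divided by reference depth (log scale) at called positions with at least 20 reads, by part of the mRNA, with pfl2 in colour left of the other protein-coding genes in grey and their median as a black bar. The 5′ UTR positions of pfl2 stand at 3.61 to 11.2 in crosslinked replicate 1 and 3.86 in crosslinked replicate 2, above medians of 0.257 and 0.122.

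The repeats were set beside the calls, since short reads from near-identical copies can match several places and nothing in the sources used here says how such reads were treated. A T was counted as repeated when the 30 nt around it occurred again in the genome with at most 2 mismatches. This held for 419 of 911 T in the coding sequence (46.0%), with up to 8 copies, and for 0 in either UTR. All copies found with this 30-nt window lay within pfl2 itself, between nt 1346 and nt 3256. Of the called coding positions, 5 of 20 (25.0%) in crosslinked replicate 1 and 1 of 6 (16.7%) in crosslinked replicate 2 were repeated. Per T, 1.19% of repeated and 3.05% of single-copy coding T were called in crosslinked replicate 1, and 0.239% and 1.02% in crosslinked replicate 2. A 20-nt window gave another picture, with 208 of 519 T repeated in the 5′ UTR (40.1%, up to 172 copies) and 27 of 93 in the 3′ UTR. At 20 nt, 3 of 25 and 1 of 7 called positions of the mRNA had a copy elsewhere in the genome.

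The longest stretch without a call lay largely in repeats. In crosslinked replicate 1 no position was called in the 988 nt between nt 1811 and nt 2800, and in crosslinked replicate 2 none in the 1133 nt between nt 1661 and nt 2795. The stretch in crosslinked replicate 1 held 269 T, of which 209 (77.7%) were repeated, against 32.7% of the other 642 coding T. It also held 60 single-copy T, and none of these was called. Inside it lies a block of 342 nt, nt 2042 to nt 2383, followed at once by a copy that matches it at 336 of 342 bases (98.2%). The pair of blocks together held 186 T, and no called position in either crosslinked library. The part that read matching has in this stretch was not tested. With repeated positions left out everywhere, 20 and 6 called positions remained in pfl2.

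Genes around pfl2 had 0 to 2 calls in each library. Such counts are common: 52.4% and 43.6% of all protein-coding genes had any call in crosslinked replicates 1 and 2. The median over genes with a call was 1 in both. The annotated lncRNAs SPNCRNA.3779, SPNCRNA.3780 and SPNCRNA.954 overlap pfl2 on the plus strand and had 0 called positions in all 3 libraries. On its own strand, the next gene downstream, SPAPB18E9.05C, had 0, and the next upstream, SPAPB15E9.02C, had 1 in crosslinked replicate 1, with 1 conversion in 3 reads. Farther downstream on that strand, SPAPB18E9.04C, 1928 nt from pfl2, had 2 in each crosslinked library and 0 in the control. Just outside the annotated mRNA, crosslinked replicate 2 had a position 21 nt upstream of the start (I 3991433), with 2 conversions in 58 reads and a reference depth of 13. The nearest outside at the 3′ end was 769 nt downstream, in crosslinked replicate 1, with 2 conversions in 23 reads.

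Other flocculin genes showed no comparable number of calls. Of the 9 flocculins listed, 3 had a called position in both crosslinked libraries, pfl2, gsf2 and pfl4, against 29.9% of all protein-coding genes. These counts of the 9 include pfl2, which was chosen for its conversions in these libraries. Calls in crosslinked replicate 1 were found in 3 of the 9, against a background of 52.4%, and calls in crosslinked replicate 2 in 4 of the 9, against 43.6%. gsf2, for the main flocculin of fission yeast, had 2 positions in each, and pfl4 had 2 in crosslinked replicate 1 and 1 in crosslinked replicate 2. pfl3 had 1 in crosslinked replicate 2 alone, and pfl5, pfl6, pfl7, pfl8 and pfl9 had 0. Each of these positions outside pfl2 rested on 1 conversion in 3 reads, the weakest call listed. The median number of conversions over the 9 genes was 0 in both crosslinked libraries, and 1 and 0 over all protein-coding genes. No flocculin had a position in the control.

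Of the regulators of flocculation, 11 of 12 were matched in the annotation and 4 had a position in both crosslinked libraries, against 29.9% of all protein-coding genes. These were the CSL transcription factors cbf11 (2 and 3 conversions) and cbf12 (3 and 1), the kinase lkh1 (2 and 3) and the corepressor ssn6 (4 and 2). All calls in cbf12 and lkh1, and all but 1 in cbf11, were 1 conversion in 3 reads. mbx2 had 0 in every library. The listed name rfl1 had no match, but the annotation has this repressor as gsf1, which had 2 positions in each crosslinked library, with 3 and 2 conversions, and 0 in the control. Of 4 cell wall enzymes tied to flocculation, gas2, for a glucanosyltransferase, and psu1, for a cell wall protein of the SUN family, had positions in both, against the same 29.9%. gas2 had 6 and 4 conversions. psu1 had 37 conversions at 12 positions in crosslinked replicate 1 and 4 at 2 positions in crosslinked replicate 2, so it too was uneven between the replicates. Its median depth was 166 and 37 reads, and its median converted share 1.89% and 6.47%.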

How the data were processed

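Clr3 PAR-CLIP libraries, 2 crosslinked and 1 without crosslinking, were each a table of called positions. Bowtie 1.1.1 and SAMtools were used with build ASM294v2, per the submitters' processing notes; no source used here names the site caller. The authors' deposited counts are converted reads and all reads per position, a reading that rests on the values. The authors' deposited p-value is that of the call, at most 0.00499. The authors' deposited occupancy is a ratio, conversions over a whole-number reference depth. Only called positions are listed, so library depth is unknown. Nuclear positions were matched to RefSeq assembly ASM294v3, where all lay on a T (6560, 4742 and 127).

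Shares carry Wilson 95% intervals, for counting error only. The labels name no separate cultures for the crosslinked replicates, so their SD may be technical. No test between libraries was made, since 2 against 1 allow no useful permutation p. Repeats were sought in 30-nt windows with at most 2 mismatches, both strands, by code checked on simulated data (Python 3.11.15, scipy 1.17.1, Biopython 1.88).

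The gene and the lists were chosen with earlier results of these data known. Named genes were pfl2, the 3 lists of flocculation genes (flocculins with any call, others with calls in both crosslinked libraries), the 4 genes of most similar shares, and neighbours; exceptions named at 0 were added after values were seen. Alternatives were at least 2 conversions, at least 20 reads, single-copy windows, p at most 0.001, another denominator, other windows, and each replicate left out.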

Additional observations from a re-analysis of the deposited data

How the results depend on the processing

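Of 58 alternative values for 12 results, 47 stayed within the replicate spread, the counting interval or 1.5 times the count. Part of this was fixed in advance, so 47 does not measure how firm the results are. All pfl2 positions passed the limits of 2 conversions and 20 reads, and a filter cannot raise 0 common positions. The mean of 2 replicates cannot move past their SD when 1 is left out. At p of at most 0.001, called positions averaged 3.5, against 16, and the replicate ratio was 0.92, without an interval. Against protein-coding positions alone the mean share was 0.602%. Leaving out each replicate gave 7 to 25 called positions. Repeated positions averaged 34.3% with 20-nt windows and 9.14% with exact matches, against 17.1%. With at least 2 conversions, list members called in both crosslinked libraries were 1 flocculin and 1 regulator; at 20 reads they were 1 and 0. No paired analysis was possible because the control has no replicate number and the crosslinked replicates form 1 group. Positions under the calling limit are not listed, which bounds every count here.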

Other observations

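The called T of pfl2 were set beside all T of its mRNA by codon position and neighbouring base, as values without a test. In the coding sequence, 12 of 20 called positions in crosslinked replicate 1 and 2 of 6 in crosslinked replicate 2 were at the third base of a codon, against 54.3% of the 911 coding T. The base just 3′ of the called T was T in 3 of 25 cases (12.0%) in crosslinked replicate 1 and in 2 of 7 (28.6%) in crosslinked replicate 2, against 38.1% of all T. The base after that was C in 14 of 25 cases (56.0%) in crosslinked replicate 1 but in 1 of 7 (14.3%) in crosslinked replicate 2, against 31.5% of all T. There it was G in 5 of 7 cases (71.4%) in crosslinked replicate 2 and in 2 of 25 (8.0%) in crosslinked replicate 1. The most frequent base at that place was thus C in crosslinked replicate 1 and G in crosslinked replicate 2.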
